A study of Mus musculus with 60 samples.

Results

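The 9 genes described here, Id3, Id1, Nr1h3, Spic, Spi1, Irf8, Zeb2, Etv5 and Batf3, encode transcription factors and regulators of the Kupffer cell and macrophage lineage. They were chosen by gene symbol, with earlier results of these data known, and are 9 of the 24411 genes in the deposited table. All 9 passed the filter on low counts and were among the 9001 genes tested. Kupffer cells are the macrophages resident in the liver, and they were profiled from 15 C57BL/6J mice aged 8 weeks, in 3 groups of 5. The groups were Trem1-deficient mice given carbon tetrachloride (CCl4), wild-type (WT) mice given CCl4, and WT mice given corn oil. CCl4, a hepatotoxin, was given once at 2 µl per g body weight in corn oil, and livers were taken 12 h later in every group. Per the labels, a density gradient and magnetic beads purified the cells, and the RNA was read as 3' tags, 1 read from the end of each captured transcript. Levels of different genes could therefore be compared without a correction for length. Trem1 encodes a receptor of myeloid cells that amplifies inflammatory signals. The allele that makes the mice Trem1-deficient is not named in the labels, and the design holds no Trem1-deficient mice given oil.

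Macrophage identity is held by layered transcription factors. PU.1 (the product of Spi1), IRF8 and ZEB2 act broadly in the myeloid lineage, while ID3 and LXRα (the product of Nr1h3) are known for their part in forming or keeping mouse Kupffer cells. SPIC, a relative of PU.1, is known for macrophages that take up red cells and recycle their iron.

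Libraries held 1250547 to 2593004 gene counts in Trem1-deficient mice, 812320 to 1912946 in WT CCl4 mice and 892498 to 1922569 in WT oil mice. A level of 3 counts, taken as the detection floor, corresponded to 1.00 to 4.15 CPM (counts scaled to the size of the library). Trem1 averaged 4.29 ± 4.09 CPM in Trem1-deficient mice, 348 ± 167 CPM in WT CCl4 mice and 54.0 ± 31.4 CPM in WT oil mice (SD, n = 5 each). Index numbers in the library names fell into a first series (Trem1-deficient mice 1 and 2 and all WT oil mice) and a second series (Trem1-deficient mice 3 to 5 and all WT CCl4 mice). Every mouse is labelled male, yet the first series carried 72 to 1552 counts of Xist, a transcript of the inactive X chromosome, and 0 to 7 counts of Y-linked genes. The second series carried 1 to 31 Xist counts and 134 to 425 Y-linked counts. The effect of CCl4 in WT mice and the index series, with its sex-linked transcripts, cannot be told apart by a comparison within a series.

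The cell type label was checked by markers. The summed level of 12 Kupffer cell markers was 43190 to 55890 CPM in Trem1-deficient mice, 4786 to 20190 CPM in WT CCl4 mice and 30930 to 60090 CPM in WT oil mice. C1qa and Cd5l made up most of this sum, with means of 20683 and 19169 CPM in WT oil mice. Marco averaged 7422 CPM in Trem1-deficient and 1197.5 CPM in WT oil mice, the 1 marker called between these groups. The median log2 fold change of the 12 markers there was -0.41. Clec4f, a lectin that defines Kupffer cells, was present in every mouse, with a median of 1287 CPM in Trem1-deficient, 196 CPM in WT CCl4 and 2510 CPM in WT oil mice. Markers of other cell types also moved with the groups. In their sums those of monocytes and hepatocytes did not overlap between WT CCl4 and WT oil mice, with the WT CCl4 mice above. The neutrophil sums overlapped. Fn1 and S100a4 made up most of the monocyte sum in WT CCl4 mice, with means of 1646 and 1074 CPM of 4008 CPM. Ly6c2 and Ccr2, which define monocytes, overlapped between these groups and were not called (edgeR adjusted p = 0.246 and 0.125). Of 10 tested monocyte markers 5 were called higher and 0 lower. Of 14 tested hepatocyte markers 4 were called higher (Hp, Fgg, Fga and Fgb) and 0 lower. Monocyte markers (10 genes) summed to 642 to 1464 CPM in Trem1-deficient, 2632 to 5011 CPM in WT CCl4 and 536 to 1258 CPM in WT oil mice. Neutrophil markers (11 genes) summed to 395 to 3277 CPM, 1238 to 11210 CPM and 225 to 1757 CPM in the groups in that order, and hepatocyte markers (15 genes) to 2120 to 21250 CPM, 17590 to 56810 CPM and 3349 to 16950 CPM. Of these 3 lists, Ass1 of hepatocytes was the 1 marker at 0 in every mouse of a group, and it was so in all 3 groups. Stellate, B cell and T and NK cell markers also had higher median sums in WT CCl4 than WT oil mice (123 against 88.3 CPM, 53.5 against 27.8 CPM, and 77.3 against 55.7 CPM), with overlapping ranges. Sinusoidal endothelial markers had median sums of 7582 CPM in Trem1-deficient, 3377 CPM in WT CCl4 and 3859 CPM in WT oil mice. In such bulk samples fewer cells of a type and less RNA per cell cannot be told apart, and the part of other cell types in the results below was not tested.

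A promoter of each of the 4 factors whose levels moved together in WT mice is shown first. RefSeq promoters on GRCm38.p6 matched 7 of the 9 genes, with Id1 and Spi1 not among them. Each sequence runs 5' to 3' from 250 bases before to 50 bases after the first listed transcription start. By the gene spans given below, the Nr1h3, Spic and Batf3 windows lie inside the gene, so their starts are not its outermost. Other starts of these genes were not examined. Capitals mark matches, on either strand, to GAGGAA (the core of the site bound by PU.1), TGANTCA (the site bound by AP-1 factors, of which BATF3 is one) or CACCTG (an E-box bound by ZEB factors).
Nr1h3 (chr2:91195067-91195366, minus strand): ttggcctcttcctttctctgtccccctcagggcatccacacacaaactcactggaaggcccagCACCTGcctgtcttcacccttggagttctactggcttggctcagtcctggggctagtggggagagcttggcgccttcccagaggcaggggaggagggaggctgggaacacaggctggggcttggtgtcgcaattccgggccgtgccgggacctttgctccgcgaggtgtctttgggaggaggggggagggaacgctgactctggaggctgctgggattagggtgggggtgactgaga
Spic (chr10:88682974-88683273, minus strand): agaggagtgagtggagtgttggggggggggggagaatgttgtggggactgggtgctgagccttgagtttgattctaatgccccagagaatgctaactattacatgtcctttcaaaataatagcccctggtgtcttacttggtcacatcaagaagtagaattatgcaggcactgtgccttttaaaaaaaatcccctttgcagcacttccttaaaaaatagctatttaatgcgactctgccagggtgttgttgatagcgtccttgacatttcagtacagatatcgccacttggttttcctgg
Etv5 (chr16:22439521-22439820, minus strand): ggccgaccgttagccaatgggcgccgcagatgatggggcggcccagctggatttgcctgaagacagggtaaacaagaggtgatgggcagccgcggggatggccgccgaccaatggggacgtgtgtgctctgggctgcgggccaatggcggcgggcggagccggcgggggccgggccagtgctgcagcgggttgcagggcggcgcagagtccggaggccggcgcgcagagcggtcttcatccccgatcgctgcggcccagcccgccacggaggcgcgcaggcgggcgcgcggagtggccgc
Batf3 (chr1:191098164-191098463, plus strand): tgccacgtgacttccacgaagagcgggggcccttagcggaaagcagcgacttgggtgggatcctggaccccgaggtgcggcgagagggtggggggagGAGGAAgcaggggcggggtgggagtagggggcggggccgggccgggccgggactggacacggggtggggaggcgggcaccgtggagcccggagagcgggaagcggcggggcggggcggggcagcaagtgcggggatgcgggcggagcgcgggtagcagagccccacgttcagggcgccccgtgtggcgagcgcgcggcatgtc
The Nr1h3 window held 1 E-box, which began 187 bases before the start, and the Batf3 window held 1 PU-box core, 153 bases before the start. The Spic and Etv5 windows held no match to the 3 motifs. Of all 32851 promoters of this length, 28.3% held GAGGAA, 7.81% TGANTCA and 20.2% CACCTG. A match says no more than that these letters stand in the window. The share of G and C ran from 45.0% in the Spic window to 75.7% in the Batf3 window.

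After CCl4, 4 of the 9 factors fell in WT mice and 5 did not pass the test. Those that fell were Nr1h3, Spic, Etv5 and Batf3, so 4 were lower and 0 higher by edgeR's quasi-likelihood test at an adjusted p under 0.05, against 2.09% of all tested genes lower. The WT CCl4 and WT oil mice did not overlap for the same 4 of 9, with the WT CCl4 mice below, against 3.44% of all tested genes. The median log2 fold change of the 9 was -0.93, while that of all tested genes was 0.06, and all 9 values were negative. At an unadjusted p under 0.05 there were 6 of the 9, Id3 and Zeb2 being the others, against 19.0% of all tested genes. With the index series as a term, which is estimated from the Trem1-deficient mice alone, 0 of 9 were called. That fit gave log2 fold changes of -2.40 for Nr1h3, -1.97 for Spic, -4.80 for Etv5 and -2.07 for Batf3 (adjusted p = 0.492, 0.560, 0.581 and 0.934).

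**Figure D1:**
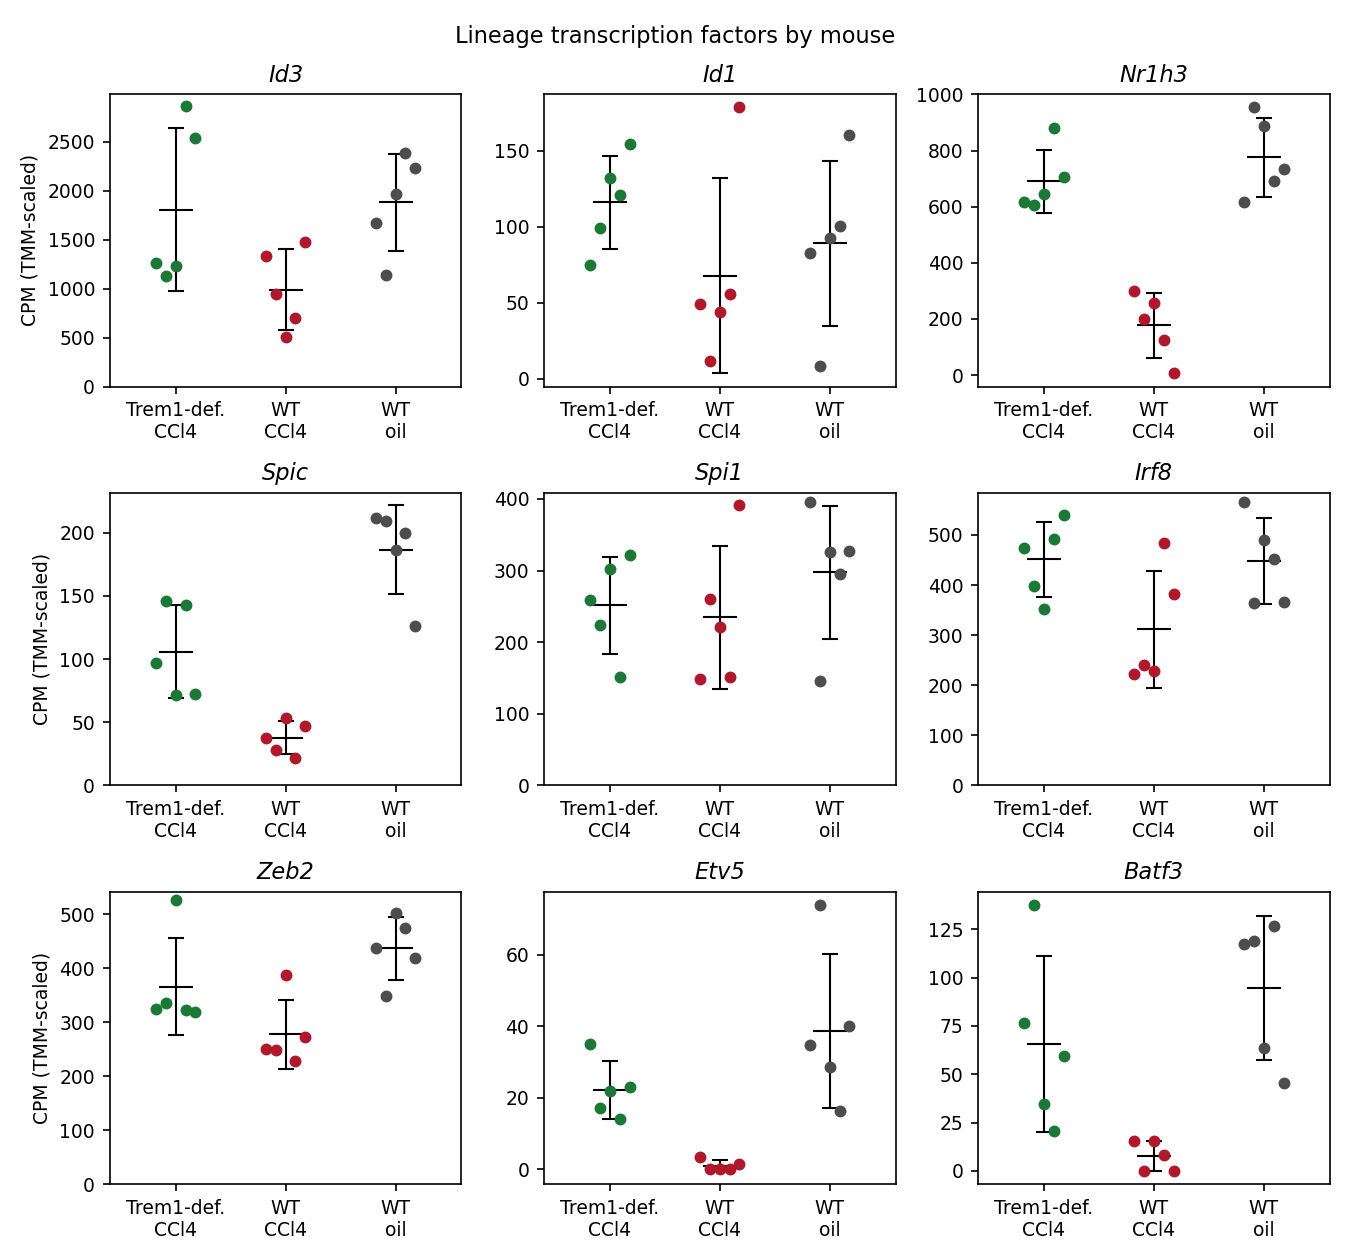
Levels of the 9 factors in TMM-scaled CPM (vertical axis, linear, a separate scale for each gene) in Trem1-deficient CCl4, WT CCl4 and WT oil mice; points are mice, horizontal marks are means and bars are SDs (n = 5 each). For Nr1h3, Spic, Etv5 and Batf3 all 5 WT CCl4 mice lie below all 5 WT oil mice.

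Nr1h3 (ENSMUSG00000002108.10, chr2:91184061-91202834, minus strand, GRCm38) encodes LXRα, an oxysterol-sensing nuclear receptor. Its levels were 300, 199, 257, 126.5 and 6.92 CPM in WT CCl4 mice 1 to 5, against 616, 954, 887, 691 and 733 CPM in WT oil mice 1 to 5. The highest WT CCl4 mouse was thus below the lowest WT oil mouse, and mouse 5, with 5 counts, lay far below the other WT CCl4 mice. The log2 fold change was -2.12 ± 0.50 (SE), a level 4.35 times lower in WT CCl4 mice (edgeR adjusted p = 0.0143). Its exons share 34 bases with Gm13783, a transcript of the same strand.

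Spic (ENSMUSG00000004359.16, chr10:88674772-88685015, minus strand) encodes the ETS factor linked to iron recycling. It was read at 37.2, 28.2, 53.4, 21.8 and 47.0 CPM in WT CCl4 mice 1 to 5, against 211, 209, 186, 199.7 and 126 CPM in WT oil mice. All WT CCl4 mice lay below WT oil mouse 5, the lowest of its group. On the log2 scale the fold change was -2.32 ± 0.44 (edgeR adjusted p = 0.00131), the smallest adjusted p of the 9 factors in this comparison.

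Etv5 (ENSMUSG00000013089.15, chr16:22381309-22439719, minus strand) encodes an ETS factor of the PEA3 group that acts downstream of receptor tyrosine kinases. It was at 3.32, 0, 0, 0 and 1.38 CPM in WT CCl4 mice 1 to 5 (6 counts in all), against 34.8, 73.9, 28.6, 16.3 and 40.1 CPM in WT oil mice (237 counts). All WT oil mice lay above the detection floor, and mouse 1 was the only WT CCl4 mouse with more than 1 count. Its log2 fold change of -5.21 ± 1.18 (edgeR adjusted p = 0.00649) rests on this near-zero group and its size is uncertain. Without WT CCl4 mouse 1 it was -6.87 (edgeR adjusted p = 0.00228).

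Batf3 (ENSMUSG00000026630.9, chr1:191097847-191108945, plus strand) encodes a basic leucine zipper factor known for the development of type 1 conventional dendritic cells. It was at 15.3, 0, 15.3, 8.01 and 0 CPM in WT CCl4 mice 1 to 5, against 117, 119, 63.6, 127 and 45.4 CPM in WT oil mice. The groups did not overlap, and WT CCl4 mice 2 and 5 had no count. Its log2 fold change was -3.56 ± 0.83 (edgeR adjusted p = 0.00881). Dendritic cell markers were checked beside it, and Xcr1, which defines type 1 conventional dendritic cells, was at 0 counts in 4 of 5 Trem1-deficient, 3 of 5 WT CCl4 and 4 of 5 WT oil mice. Clec9a, another of their markers, had a median of 18.3 CPM in Trem1-deficient, 2.77 CPM in WT CCl4 and 27.5 CPM in WT oil mice. The 9 markers of conventional dendritic cells summed to 336 to 480 CPM in Trem1-deficient mice, to 302.5, 233, 239.6, 237 and 1121 CPM in WT CCl4 mice 1 to 5, and to 410 to 520 CPM in WT oil mice. Thus 4 of 5 WT CCl4 mice lay below every WT oil mouse in this sum and mouse 5 lay above them. Most of the sum was Cadm1, with a mean of 333 CPM of 471.5 CPM in WT oil mice, so the sum largely repeats that gene. Cadm1, an adhesion molecule on that list, was the 1 marker of 5 tested that was called, lower in WT CCl4 than WT oil mice (-1.67 ± 0.37, edgeR adjusted p = 0.00477) and higher in Trem1-deficient than WT CCl4 mice (1.47 ± 0.37, edgeR adjusted p = 0.0269). The other 4 were not called, and most went the other way. Ccr7 gave 2.69 ± 1.06, Wdfy4 0.55 ± 0.57, Zbtb46 0.21 ± 1.56 and Clec9a -0.84 ± 1.11 in WT CCl4 against WT oil mice. In Trem1-deficient against WT CCl4 mice they gave -2.38, -1.12, -0.35 and 0.79 in that order. The median log2 fold change of the tested markers was 0.21 in the first comparison and -0.35 in the second. The part of dendritic cells in the Batf3 result was not tested.

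The inhibitors and the broadly acting factors gave smaller values that did not pass the test. Id3 (ENSMUSG00000007872.3, chr4:136143497-136145755, plus strand) encodes a helix-loop-helix protein without a DNA-binding region, which blocks its partners. Id3 was at 1334, 941, 502, 696 and 1480.4 CPM in WT CCl4 mice, against 1672, 1142, 1969, 2385 and 2236 CPM in WT oil mice. The groups overlapped, since WT oil mouse 2 lay below WT CCl4 mice 1 and 5. The log2 fold change was -0.93 ± 0.31 with a 95% interval of -1.60 to -0.25 (edgeR adjusted p = 0.0773). Id3 did pass with upper-quartile scaling (-1.16, adjusted p = 0.0386) and with no filter on low counts (-0.91, adjusted p = 0.00882).

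Id1 (ENSMUSG00000042745.9, chr2:152736251-152737410, plus strand) is a relative of Id3. Id1 ranged from 12.1 to 178 CPM in WT CCl4 mice with a median of 49.2 CPM, against 8.76 to 161 CPM with a median of 92.9 CPM in WT oil mice. The highest mouse was 14.8 times the lowest in WT CCl4 mice and 18.3 times in WT oil mice, and its interval was the widest of the 5 factors that did not pass. It gave a log2 fold change of -0.41 ± 0.60, with an interval of -1.72 to 0.90 (edgeR adjusted p = 0.787). Without WT CCl4 mouse 5, the highest of its group, it was -1.16 (edgeR adjusted p = 0.262).

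Spi1 (ENSMUSG00000002111.8, chr2:91082390-91115756, plus strand) encodes PU.1, the ETS factor that opens myeloid enhancers. It averaged 235 ± 99.8 CPM in WT CCl4 mice and 298 ± 92.8 CPM in WT oil mice, with a log2 fold change of -0.35 ± 0.35 and an interval of -1.10 to 0.40 (edgeR adjusted p = 0.658). Irf8 (ENSMUSG00000041515.10, chr8:120736358-120756694, plus strand), which encodes a partner of PU.1, averaged 311 ± 117 CPM in WT CCl4 mice and 448 ± 85.8 CPM in WT oil mice. Its log2 fold change was -0.52 ± 0.29, with an interval of -1.16 to 0.11 (edgeR adjusted p = 0.344). Zeb2 (ENSMUSG00000026872.17, chr2:44983632-45117395, minus strand), a zinc finger repressor, averaged 277 ± 63.1 CPM in WT CCl4 mice and 437 ± 58.4 CPM in WT oil mice, a log2 fold change of -0.66 ± 0.28 with an interval of -1.27 to -0.04 (edgeR adjusted p = 0.190). All 5 intervals leave room for a fall of 1.10 or more on the log2 scale, so the misses do not show that these factors kept their level. Zeb2 exons share 653 bases with Zeb2os on the other strand. No source used here states the strand setting of the counting, so how reads in those bases were assigned is not known.

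Trem1 deficiency was compared with WT after CCl4. Nr1h3, Etv5 and Batf3 were higher in Trem1-deficient than in WT CCl4 mice, so 3 of 9 were called higher and 0 lower, against 0.778% of all tested genes higher. For Spic, Nr1h3, Etv5 and Batf3 every Trem1-deficient mouse lay above every WT CCl4 mouse, which is 4 of 9 against 3.42% of all tested genes. The median log2 fold change of the 9 was 0.87, beside -0.03 for all tested genes. These 3 calls were close to the threshold. Leaving out Trem1-deficient mouse 1, 2, 3 or 5 or WT CCl4 mouse 2, 3 or 4 took the count to 0 (7 of 10 removals, adjusted p up to 0.157), and leaving out Trem1-deficient mouse 4 kept Batf3 alone.

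Nr1h3 was at 616, 607, 646, 879.9 and 706 CPM in Trem1-deficient mice 1 to 5, against the 6.92 to 300 CPM of WT CCl4 mice given above. No mouse of one group reached the other. Nr1h3 gave a log2 fold change of 1.95 ± 0.50, a level 3.88 times higher (edgeR adjusted p = 0.0451). Within the second index series, which leaves Trem1-deficient mice 3 to 5, it was 2.08 with an adjusted p of 0.226. Trem1-deficient mice 1 and 2, of the first series, had the lowest Nr1h3 levels of their group.

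Etv5 was at 35.1, 16.9, 21.7, 13.9 and 22.9 CPM in Trem1-deficient mice 1 to 5, all above the 3.32 CPM of the highest WT CCl4 mouse. Etv5 gave 4.41 ± 1.15 on the log2 scale (edgeR adjusted p = 0.0383), and 4.23 within the second series (adjusted p = 0.459). Without WT CCl4 mouse 1 it was 6.06 (edgeR adjusted p = 0.00921). Batf3 was at 76.5, 138, 34.8, 20.4 and 59.2 CPM in Trem1-deficient mice, against at most 15.3 CPM in WT CCl4 mice. The mice of the first series, 1 and 2, had the higher Batf3 levels. Its log2 fold change was 3.04 ± 0.82 (edgeR adjusted p = 0.0451), and 2.29 within the second series (adjusted p = 0.793).

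Spic did not pass at the threshold although the groups did not overlap. It was at 96.9, 146, 71.7, 143 and 72.1 CPM in Trem1-deficient mice 1 to 5, against 21.8 to 53.4 CPM in WT CCl4 mice. Its log2 fold change was 1.50 ± 0.43 with a 95% interval of 0.56 to 2.44 (edgeR adjusted p = 0.0607). DESeq2 gave 1.41 with an adjusted p of 0.00903. It was 1 of 2 settings among 9 alternatives that called Spic, with adjusted p up to 0.755 over the 9. Over 10 removals of 1 mouse Spic was called in 1 (edgeR adjusted p up to 0.185).

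Id3 was at 1266, 1132, 1229, 2869 and 2541 CPM in Trem1-deficient mice 1 to 5, so mice 4 and 5 stood above the other 3 and above all WT CCl4 mice. Its log2 fold change was 0.87 ± 0.31 (edgeR adjusted p = 0.146), and with no filter it passed (0.88, adjusted p = 0.0181). Id1 gave 0.78 ± 0.60, with 74.8 to 154 CPM in Trem1-deficient mice (edgeR adjusted p = 0.587), and 1.54 without WT CCl4 mouse 5 (edgeR adjusted p = 0.159). Irf8 gave 0.54 ± 0.29 and Zeb2 0.40 ± 0.28 (edgeR adjusted p = 0.384 and 0.537). Spi1 gave 0.10 ± 0.34 (edgeR adjusted p = 0.931), with an interval of -0.65 to 0.86, and its sign turned under DESeq2 and under RLE scaling.

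**Figure D2:**
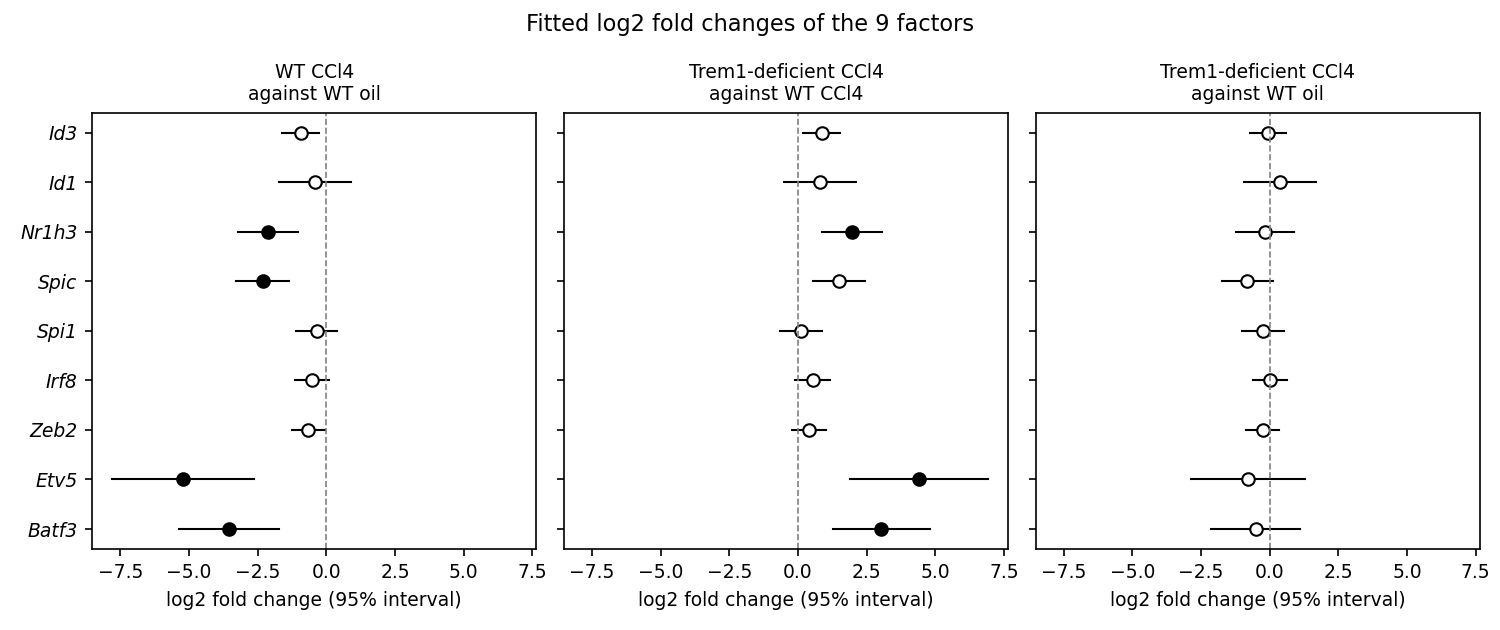
Log2 fold changes of the 9 factors (horizontal axis) in 3 comparisons, one panel each, from the edgeR fit of all 15 mice; bars are 95% intervals and filled points passed an adjusted p of 0.05. In WT CCl4 against WT oil the 4 filled points lie at -2.12 or lower, and the right panel holds no filled point.

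Trem1-deficient CCl4 mice were also set against WT oil mice, a comparison in which genotype and treatment differ together. By edgeR 0 of 9 factors were called, against 0.233% of all tested genes, and 0 of 9 passed an unadjusted p under 0.05, against 4.66% of all tested genes. Both counts are near what those shares give for 9 genes. DESeq2 and limma voom also called 0. The groups overlapped for all 9, while 2.90% of all tested genes had groups that did not. The log2 fold changes ranged from -0.81 ± 0.42 for Spic, with an interval of -1.73 to 0.10, to 0.38 ± 0.60 for Id1. Spic averaged 106 ± 36.7 CPM in Trem1-deficient mice and 187 ± 35.2 CPM in WT oil mice, and 5 of 5 Trem1-deficient mice were below the WT oil mean. Nr1h3 gave -0.17, with an interval of -1.21 to 0.88, and Etv5 -0.80, with an interval of -2.88 to 1.27. The intervals are wide enough that equal levels are not shown. The 3 comparisons share their groups, so their values are given side by side and not counted as separate evidence.

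The order of the levels differed between groups. In Trem1-deficient mice the order of mean CPM was Id3, Nr1h3, Irf8, Zeb2, Spi1, Id1, Spic, Batf3 and Etv5, and in WT oil mice it was Id3, Nr1h3, Irf8, Zeb2, Spi1, Spic, Batf3, Id1 and Etv5. In both groups the ranges of neighbours did not overlap between Id3 and Nr1h3 or between Nr1h3 and Irf8, and all later neighbours overlapped. In WT CCl4 mice Nr1h3 took the fifth place, at 178 ± 116 CPM, below Irf8, Zeb2 and Spi1. There the ranges of neighbours did not overlap only between Id3 and Irf8 and between Spic and Batf3.

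Each factor was set against the Kupffer cell markers, as CPM per 1000 CPM of the 12 summed markers, as a description without a test. Id3 had a median ratio of 28.1 in Trem1-deficient, 111 in WT CCl4 and 36.9 in WT oil mice. Zeb2 had 7.19, 38.9 and 8.42 in the groups in that order, and its WT CCl4 mice lay above every mouse of both other groups. Spi1 stood at 5.73 in Trem1-deficient, 30.7 in WT CCl4 and 5.47 in WT oil mice. Irf8 stood at 9.74, 28.3 and 8.86, and Id1 at 2.39, 4.42 and 1.58. Thus the medians of the 5 factors that did not pass the test were highest, relative to the markers, in WT CCl4 mice. Nr1h3 stood at 14.3, 23.5 and 13.6, and Spic at 2.15, 4.55 and 3.91. Their medians were also highest in WT CCl4 mice, with overlapping WT CCl4 and WT oil mice for both. Etv5 stood at 0.482 in Trem1-deficient, 0 in WT CCl4 and 0.663 in WT oil mice, and its WT CCl4 mice lay below every mouse of both other groups. That gap was narrow, with WT CCl4 mouse 5 at 0.271, from 1 count, and Trem1-deficient mouse 4 at 0.275. Batf3 stood at 1.37, 0.757 and 2.24, with groups that overlapped. The marker sum had a median of 45120 CPM in Trem1-deficient, 8500 CPM in WT CCl4 and 52420 CPM in WT oil mice. A factor that fell less than the sum therefore rose in the ratio. The sum also holds Cd5l, an LXR target, and Slc40a1, a gene linked to SPIC, so the ratio is not independent of these factors.

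**Figure D3:**
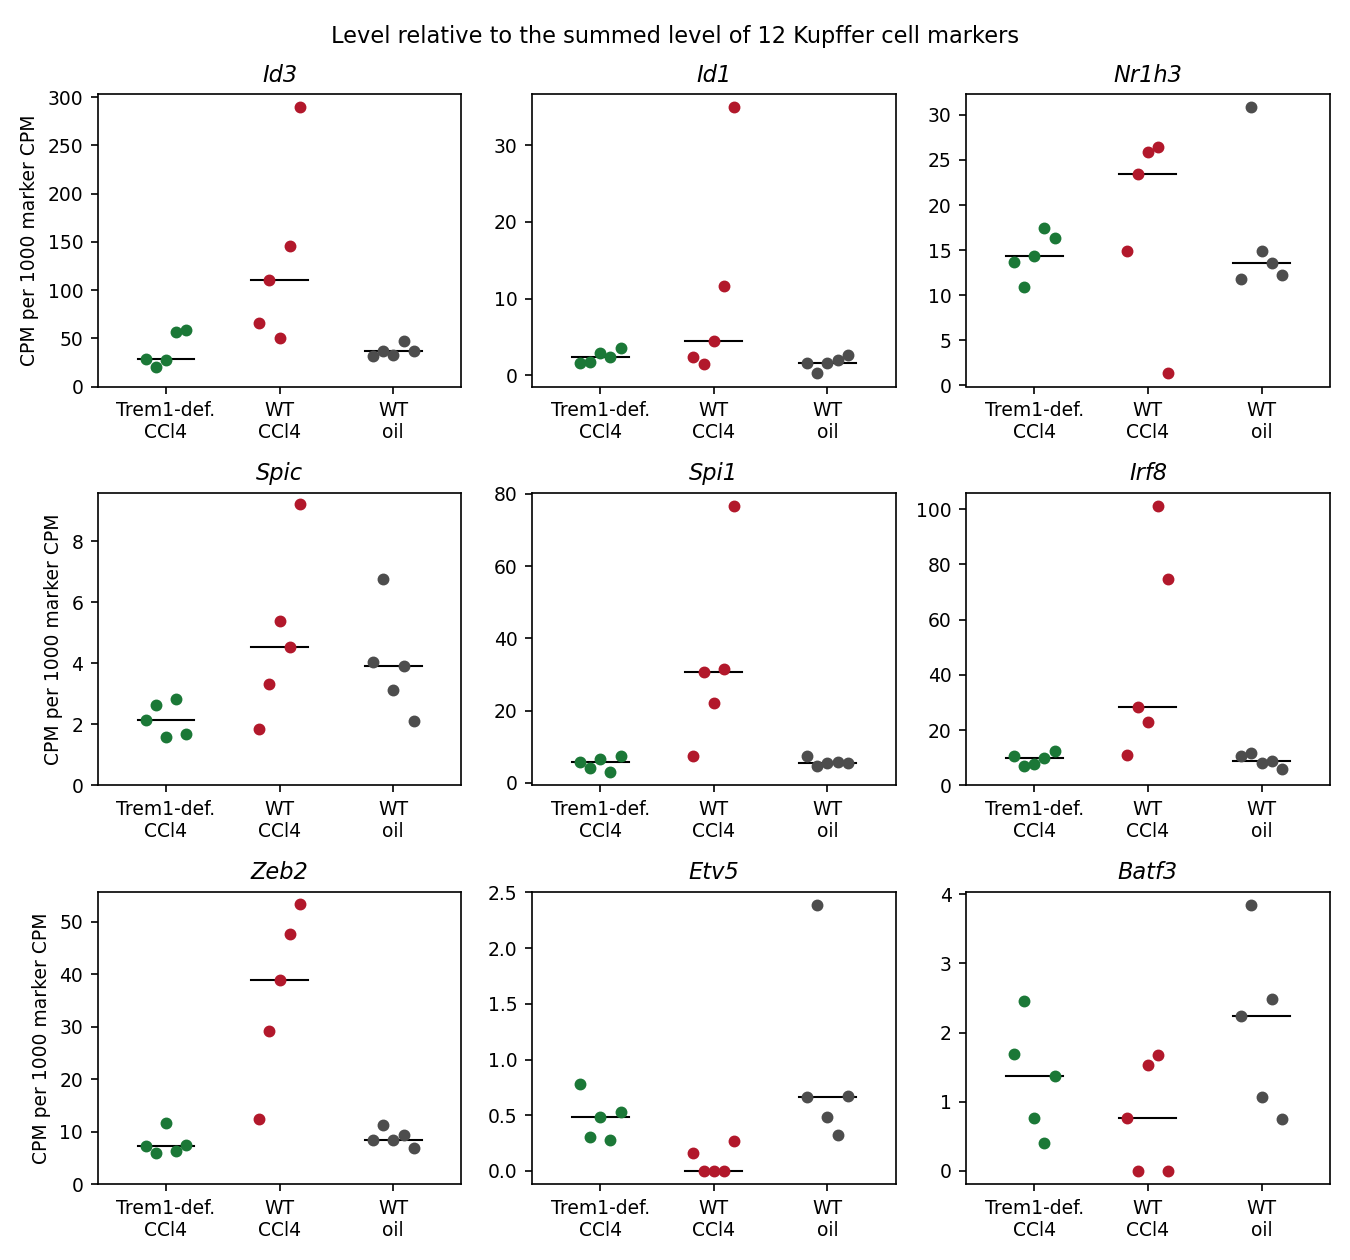
Level of each factor per 1000 CPM of the 12 summed Kupffer cell markers (vertical axis, linear, a separate scale for each gene) by mouse in the 3 groups, with the median as a line. For Zeb2 the WT CCl4 mice lie above, and for Etv5 below, every mouse of the other groups. The Etv5 gap is narrow (0.271, from 1 count, against 0.275).

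Genes of the pathways of these factors were counted from lists in the same fits, where 3.04% of all tested genes were higher and 2.09% lower in WT CCl4 than WT oil mice. Of 38 tested other macrophage transcription factors, 2 were higher (Smad4 and Bach1) and 3 lower in WT CCl4 mice, with a median log2 fold change of -0.19. Smad4 and Bach1 were close to the threshold (edgeR adjusted p = 0.0486 and 0.0498), and the groups overlapped for Bach1. Both genes also stand in lists below, where they are the same results counted again. Among the lower ones were Klf4 (-1.38 ± 0.33) and Rxra (-1.43 ± 0.40), the partner receptor of LXRα. Of 11 tested LXR targets, 3 were lower in WT CCl4 mice (Cd5l, Apoe and Smpdl3a), with a median of -0.80. Cd5l, a scavenger protein secreted by macrophages, averaged 3384 ± 2522 CPM in WT CCl4 mice and 19169 ± 5058 CPM in WT oil mice.

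Of 10 PU.1 targets, 3 were lower and 1 higher in WT CCl4 than WT oil mice, with a median of -0.89. Csf1r, the receptor for the macrophage growth factor, gave -2.34 ± 0.31 and Itgam, which encodes CD11b, 2.12 ± 0.53. Of 8 haem and iron genes linked to SPIC, Slc40a1 (-2.53 ± 0.35), the iron exporter ferroportin, and Cd163 (-2.52 ± 0.41), the receptor for haemoglobin bound to haptoglobin, were lower, and Bach1 (1.65 ± 0.50), a haem-sensing repressor, was higher. Of 19 tested genes of bone morphogenetic protein and TGF-beta signalling, which induces ID genes, 1 was higher, Smad4 (1.65 ± 0.50), the shared signal transducer, and 0 lower. Of 4 tested genes of receptor tyrosine kinase output, 1 was higher, Phlda1 (1.97 ± 0.58).

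In the comparison of Trem1-deficient with WT CCl4 mice, 1.28% of all tested genes were lower and the share higher is given above. Of all 9001 tested genes, 15.2% had an unadjusted p under 0.05 and limma voom called 6.59%. DESeq2 called 616 genes, which is 9.01% of the 6838 to which it gave an adjusted p. Counts by those rules are to be read against these shares. In the DESeq2 counts of a list, a gene without an adjusted p counts as not called. There Csf1r (1.53 ± 0.30) and Cybb (1.20 ± 0.26), the catalytic subunit of the phagocyte oxidase, were 2 of 10 PU.1 targets called higher. Cd163 (2.99 ± 0.42) and Slc40a1 (1.91 ± 0.35) were 2 of 8 haem and iron genes called higher. By edgeR 0 of 4 genes of receptor tyrosine kinase output were called, with 1 at an unadjusted p under 0.05, while DESeq2 and limma voom called 1 each. Of 11 tested LXR targets, Cd5l was higher (2.44 ± 0.34) and Scd1, a fatty acid desaturase, lower (-3.07 ± 0.45). Scd1 averaged 150 ± 67.1 CPM in Trem1-deficient and 1254 ± 614 CPM in WT CCl4 mice, so these LXR targets moved in opposite directions. By edgeR 0 of 38 other macrophage transcription factors were called here, with 11 at an unadjusted p under 0.05, while DESeq2 called 4 and limma voom 5. By edgeR 0 of 19 BMP and TGF-beta genes were called, with 6 at an unadjusted p under 0.05, while DESeq2 and limma voom called 2 each. In Trem1-deficient CCl4 against WT oil mice, Scd1 (-2.32 ± 0.44) was the 1 gene called in the 6 lists.

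The gene outside the set with the most similar pattern across the 15 mice was found by the root mean square difference of mean-centred log2 CPM. This measure grows with a gene's own spread, and the SD of log2 CPM ran from 0.38 for Zeb2 to 2.20 for Batf3, so its size does not rank the factors by likeness. The nearest gene outside the set was Actb for Zeb2 (0.25), Itga9 for Id3 (0.32), Phf23 for Spi1 (0.34), Hbegf for Nr1h3 (0.36), Dnajc8 for Spic (0.45), Sdhb for Id1 (0.46), Wls for Etv5 (0.61) and Adcy4 for Batf3 (0.84).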

How the data were processed

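The 60 labelled entries are 4 lanes of each of 15 mice. The authors deposited 1 table of raw counts of reads per gene with 1 column per mouse, and the mouse was taken as the replicate, so p-values measure the spread between mice. Per the labels' protocols the libraries were made with a 3' tag kit (Lexogen QuantSeq). The submitters' processing notes name Trimmomatic, STAR 2.5.1a, Partek 6.6 and the build mm10, without their roles. For the counting, annotation and strand setting are not given in the sources used. The 4 tally lines entered neither library sizes nor tests, and 12.6 to 28.8% of a library's reads lay in genes. No molecular identifiers are mentioned, so counting floors cover counting error only.

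The test was that of edgeR 4.0.16 (R 4.3.3), with TMM scaling, filterByExpr by group, and the robust quasi-likelihood F-test on 1 fit of the 3 groups (12 residual degrees of freedom), Benjamini-Hochberg adjusted over the 9001 genes tested. Standard errors are the fold change divided by the root of F. Intervals are 95% and use the 12 residual degrees of freedom alone. The test also draws on the spread of other genes, so the intervals are wider than its p-values imply. Levels are TMM-scaled CPM. The script was tested on simulated data. Libraries of a group differed by more than sampling noise (smallest chi-square divided by its degrees of freedom, 10.2). Trem1 was compared by a two-sided exact permutation test on log2(CPM + 1) and gave p = 0.00794 in each of 3 comparisons, the smallest the design allows. Alternatives were DESeq2 1.42.0, limma 3.58.1 voom, other scalings, no filter, replicate block, index series and each mouse left out. Positions are those of GENCODE M21 (GRCm38, the same assembly as mm10). Named genes are the 9 factors, the 3 genes of a list with the smallest p, and the nearest genes; other called list genes were named after their values were seen. The members and lists were chosen with earlier results of these data known. Values of some genes that the naming rule picks are not reported here.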

Additional observations from a re-analysis of the deposited data

Results flagged for a closer look

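Samples far from the other 4 of their group were looked for in 27 groups (9 factors in 3 groups of 5 mice), and 3 stood apart, where chance flags about 1 in 20 groups. Zeb2 stood at 526 CPM in Trem1-deficient mouse 3, the next mouse of that group being at 336 CPM. Zeb2 also stood at 387 CPM in WT CCl4 mouse 3, with the next mouse at 273 CPM. Id1 stood at 178 CPM in WT CCl4 mouse 5, with the next mouse at 55.5 CPM. That mouse also had the lowest Nr1h3 level, 6.92 CPM from 5 counts, and the shallowest library, 812320 gene counts.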

How the results depend on the processing

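The 4 factors that fell in WT CCl4 against WT oil mice kept their call in 10 of 10 removals of 1 mouse (4 to 5 factors called, Id3 being the added one). For Trem1-deficient against WT CCl4 mice 0 to 4 factors were called over the removals and for Trem1-deficient CCl4 against WT oil 0 to 0. Over all genes, where the fit gave 462, 185 and 21 in the comparisons in that order, the removals gave 302 to 759, 87 to 508 and 12 to 28 genes. DESeq2 gave 1010, 616 and 74 genes, no filter 813, 563 and 73, and the index series term 37, 77 and 11. Limma voom gave 593 in the second and 7 in the last. The second index series alone gave 57 genes for Trem1-deficient against WT CCl4 mice. With the index series as a term 0 factors were called in the first and second comparisons, and with only the 2 groups compared or the second series alone 0 in the second.

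The replicate numbers did not pair the mice (correlations of same-numbered mice from -0.0585 to 0.0386, and 1 of 15 libraries matched best to its own number). The replicate block gave 365, 158 and 21 genes and 3, 1 and 0 factors. Nr1h3 gave -2.31 with an adjusted p of 0.0644 in WT CCl4 against WT oil mice under that block.

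Upper-quartile scaling moved the median of all genes by -0.15 in the first comparison and 0.16 in the second, and voom by -0.26 and 0.36. The share of calls that were higher was 59.3% and 37.8%, against 48.1% and 54.4% under upper-quartile scaling. Spi1 in Trem1-deficient against WT CCl4 mice turned to -0.0074 under DESeq2 and -0.0093 under RLE, and to between -0.019 and 0.40 over the removals. In Trem1-deficient CCl4 against WT oil mice Irf8 turned to -0.010 under DESeq2 and RLE, -0.0093 with the replicate block, -0.038 with the index term and -0.018 in the first series alone, with -0.060 to 0.11 over the removals. There Id1 turned to -0.042 and -0.021, and Batf3 to 0.18 and 0.21, with the index term and in the first series alone, and Id3 lay between -0.29 and 0.074 over the removals. The causes were not tested. Depth limits Etv5 and Batf3, which had 6 and 53 counts over the 5 WT CCl4 mice.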
